A study of Homo sapiens with 12 samples.

Results

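Apolipoproteins are the protein part of lipoprotein particles, which carry cholesterol and triglyceride through the blood, and the liver makes most of those studied here. APOB is the structural protein of very low and low density lipoproteins, APOA1 that of high density lipoproteins, and APOE the ligand by which remnant particles are taken up. APOC2 activates lipoprotein lipase, APOC3 and APOC1 slow the clearance of triglyceride-rich particles, and APOA5 speeds it. Acetylation of histone H3 at lysine 27 (H3K27ac) marks active promoters and enhancers, and broad stretches of it over highly expressed genes of a cell's identity are called super-enhancers (SEs). HSF1, heat shock transcription factor 1, drives the chaperone genes after proteotoxic stress and binds heat shock elements built from GAA repeats.

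The 9 apolipoprotein genes described are APOA1, APOA4, APOA5 and APOC3, which lie together on chromosome 11, APOB on chromosome 2, and APOE, APOC1, APOC2 and APOC4, which lie together on chromosome 19. The rule takes them by name and position and uses no measured value, but it was set with earlier results of these data known. They were taken out of 20007 protein-coding gene symbols in the GENCODE release 44 annotation. The data were 4 deposited peak lists of Huh7 cells, a human hepatocellular carcinoma line. H3K27ac ChIP-seq was made from wild-type cells 48 h after transfection with the control siRNA siNC and from HSF1 knockdown cells 48 h after transfection with siHSF1, both with Lipofectamine RNAiMAX. HSF1 and H3K27ac CUT&Tag, in which an antibody guides a transposase to cut the DNA around a chromatin protein, were made from untreated wild-type cells. There was 1 library per condition, so no difference has a replicate check and no test between conditions was possible. Which HSF1 siRNA was used for ChIP-seq is not named, and the extent of the knockdown is not shown by peak lists.

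The siNC ChIP-seq library held 13140316 tags, of which 9795121 remained without duplicates, and the siHSF1 library 14979176, of which 10793650 remained. The fragment length that the peak caller used was 297 bp for siNC and 175 bp for siHSF1, and it sets the shortest peak that can be called. The siNC list held 41082 peaks and the siHSF1 list 45586, and their peaks were 575 bp and 334 bp long at the median. Fold enrichment, the pileup of tags plus 1 over the local background plus 1, served as the main height, since pileup grows with depth and fragment length. The HSF1 CUT&Tag list held 7147 peaks from 2712212 tags. The H3K27ac CUT&Tag list held 1299 peaks from 896393 tags, 5.70% of those sequenced.

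The HSF1 CUT&Tag list held 5 peaks within 20 kb of the bodies of the 9 genes. Their hg38 sequences, 60 bp to either side of the summit on the plus strand, are printed to show the DNA under each peak. Capitals mark matches to the letters CCAAT, which is the pentamer bound by NF-Y, or to a direct repeat of AGGTCA with 1 base between (DR1), which nuclear receptors such as HNF4A can bind.
APOA5 intron, chr11:116791415-116791535: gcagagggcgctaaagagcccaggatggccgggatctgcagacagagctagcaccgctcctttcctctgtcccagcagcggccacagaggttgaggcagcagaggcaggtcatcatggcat
Interval between APOA5 and APOA4, chr11:116808438-116808558: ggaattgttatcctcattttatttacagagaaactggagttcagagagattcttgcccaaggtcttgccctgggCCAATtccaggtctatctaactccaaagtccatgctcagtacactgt
TOMM40 start, chr19:44890679-44890799: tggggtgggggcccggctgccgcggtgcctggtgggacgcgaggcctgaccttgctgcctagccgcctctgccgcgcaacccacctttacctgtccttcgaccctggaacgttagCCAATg
Upstream of APOC4, chr19:44936006-44936126: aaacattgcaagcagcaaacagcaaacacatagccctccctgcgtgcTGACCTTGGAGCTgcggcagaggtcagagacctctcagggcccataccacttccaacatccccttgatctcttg
APOB intron, chr2:21043104-21043224: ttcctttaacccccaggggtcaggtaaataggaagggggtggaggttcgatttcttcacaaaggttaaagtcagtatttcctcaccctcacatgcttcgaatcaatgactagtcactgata

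Within the 3 windows of the apolipoprotein genes, H3K27ac peaks covered fewer bases in the siHSF1 list than in the siNC list. The APOA5-APOA4-APOC3-APOA1 window of 70 kb on hg19 held 14 peaks over 9445 bp in siNC and 6 peaks over 2263 bp in siHSF1 cells. The APOB window of 75 kb held 8 peaks over 5620 bp and 5 peaks over 1749 bp. The APOE-APOC1-APOC4-APOC2 window of 60 kb held more peaks in siHSF1 cells, 25 against 18, while the covered bases were 30126 bp in siNC and 13382 bp in siHSF1 cells. Among peaks with a -log10 q-value of at least 5 the direction of the number turned, to 15 siNC and 10 siHSF1 peaks. The numbers over all peaks were not computed with this filter. As a share of the window, peaks covered 50.2% of the APOE window in siNC cells against 13.5% of the APOA5 and 7.49% of the APOB window, and 22.3%, 3.23% and 2.33% in siHSF1 cells.

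Over the whole genome the siHSF1 list held 1.11 times as many peaks as the siNC list and covered 0.577 times as many bases, beside the shorter fragment length. The ratio of covered bases was 0.240 in the APOA5 window, 0.311 in the APOB window and 0.444 in the APOE window, each below that of all peaks. To place these ratios, each chromosome was divided into blocks of a window's length and those with at least 5 siNC peaks were taken, a comparison chosen after the data were seen. Of 2803 blocks of 70 kb, 6.89% had a lower ratio of covered bases than the APOA5 window. For the APOB window this was 13.4% of 2873 blocks and for the APOE window 31.2% of 2783 blocks. The ratio of peak numbers was 0.429 in the APOA5 window, 0.625 in the APOB window and 1.39 in the APOE window, and 7.81%, 18.03% and 75.2% of blocks were lower, with all peaks of the lists counted. The part of the fragment length in these differences was not separated from that of the knockdown. When each peak was shortened by its library's fragment length, the covered ratios were 0.229, 0.269 and 0.363. The ratio over all peaks was not computed with this shortening, so these values have no genome-wide value beside them.

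**Figure D1:**
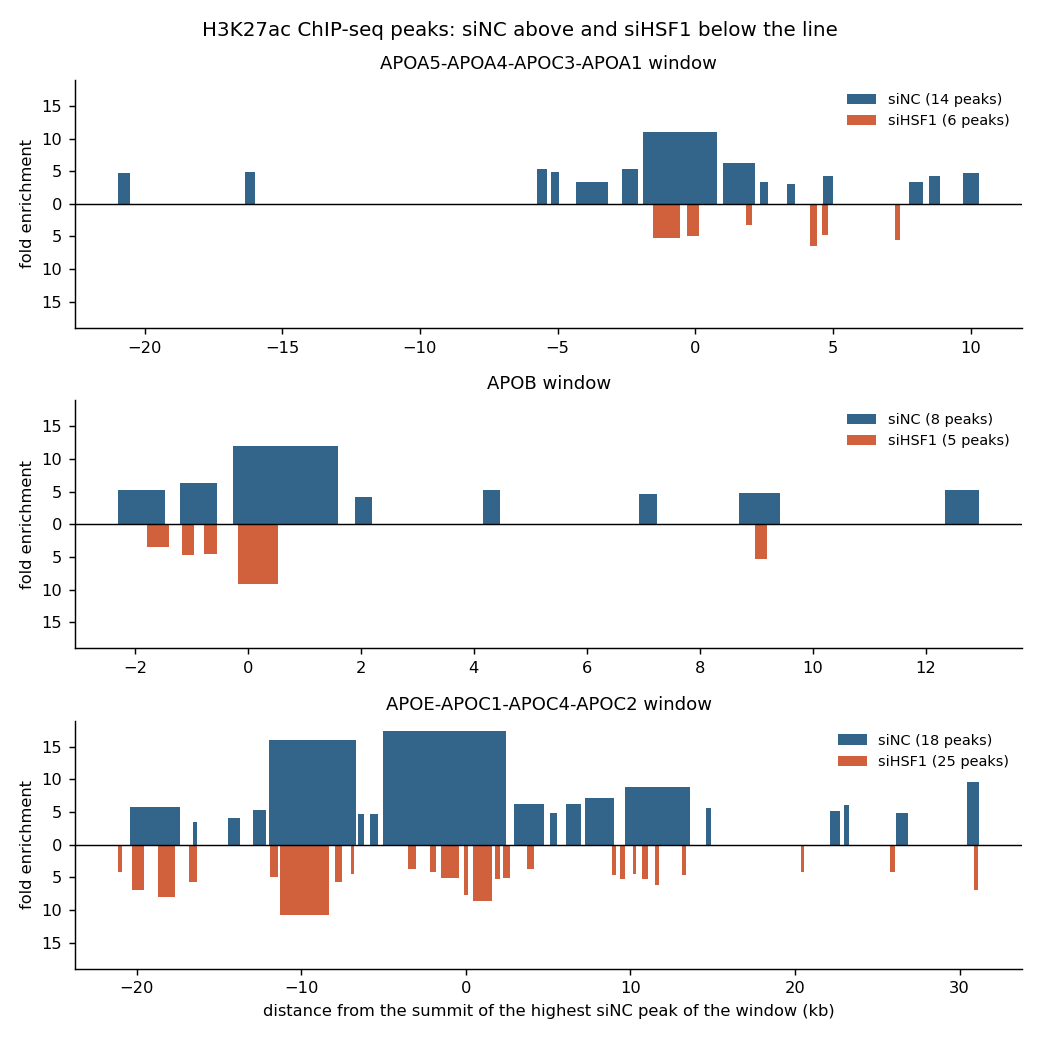
H3K27ac ChIP-seq peaks in the 3 windows, with siNC above and siHSF1 below the line. Each bar is 1 peak, its width the peak's length in kb (at least 0.12 kb so that it can be seen) and its height the fold enrichment; the horizontal axis is the distance in kb from the summit of the highest siNC peak. The broad siNC peaks of 5289 and 7486 bp in the APOE window stand over 4 and 7 shorter siHSF1 peaks, and the siNC peaks left of the highest peak in the APOA5 window have no siHSF1 peak below them.

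**Figure D2:**
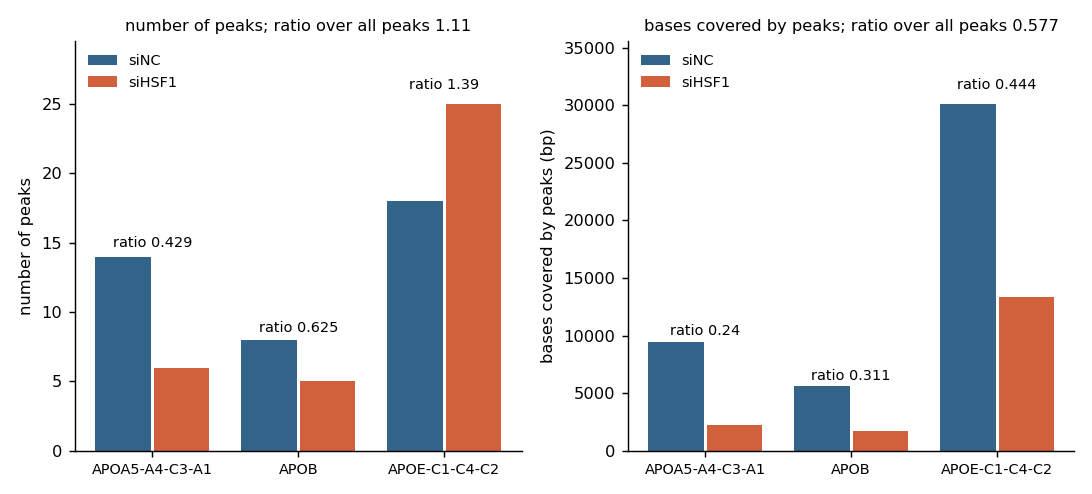
Number of H3K27ac ChIP-seq peaks (left) and bases they cover (right) in each window, as bars from 0 for siNC and siHSF1, 1 library each. The number was lower in siHSF1 cells in the APOA5 and APOB windows and higher in the APOE window, with 25 against 18 (10 against 15 with a -log10 q-value of at least 5), while the covered bases were lower in siHSF1 cells in all 3. The filtered count was not made over all peaks.

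In the APOA5-APOA4-APOC3-APOA1 window, the 14 siNC peaks lay between chr11:116679324 and 116710592 on hg19, and the 6 siHSF1 peaks between 116698725 and 116707715. The highest siNC peak (chr11:116698363-116701062) had a pileup of 22 tags and a fold enrichment of 11.1, above 94.55% of siNC peaks. It overlapped 2 siHSF1 peaks, the higher with a pileup of 8 and a fold enrichment of 5.29, for a log2 ratio of -1.06. Of all 19826 regions with a peak in both lists, 1.2% had a lower log2 ratio. The second siNC peak (chr11:116701276-116702457) had a fold enrichment of 6.26 against 3.26 in siHSF1 cells, with pileups of 12 and 5 and a log2 ratio of -0.94. Both regions were lower in siHSF1 cells.

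The third shared region (chr11:116704871-116705267) was slightly higher in siHSF1 cells, with a fold enrichment of 4.33 in siNC and 4.71 in siHSF1 cells. The other 11 siNC peaks had no siHSF1 partner, and the highest of these reached a fold enrichment of 5.29 at chr11:116694539-116694894 and at chr11:116697630-116698186. Next came 4.81 at chr11:116683937-116684293, equalled by a peak at chr11:116695029-116695325. A pair of siHSF1 peaks had no siNC partner, at chr11:116704457-116704681 with a fold enrichment of 6.47 and at chr11:116707524-116707715 with 5.48. The first of these was the highest siHSF1 peak of the window, above 66.9% of siHSF1 peaks. When peaks less than 1 kb apart were joined, each list held 4 groups in this window, and the numbers no longer differed.

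In the APOB window the highest peak of both lists lay at the same place. The siNC peak (chr2:21266035-21267899) had a pileup of 24, a fold enrichment of 12.03 and a length of 1865 bp. The siHSF1 peak (chr2:21266127-21266822) had a pileup of 17, a fold enrichment of 9.19 and a length of 696 bp, with a log2 ratio of -0.39. These stood above 95.95% and 89.5% of the peaks of their lists. By window, the highest siHSF1 fold enrichment was 0.763 times the highest siNC value for APOB, 0.585 times for APOA5 and 0.619 times for APOE, wherever in the window these peaks lay.

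A pair of weaker APOB regions was lower as well. At chr2:21264001-21264908 the fold enrichment was 5.29 in siNC and 3.43 in siHSF1 cells, and at chr2:21265091-21265747 it was 6.26 and 4.71. At chr2:21274989-21275718 it was higher in siHSF1 cells, with 4.77 in siNC and 5.29 in siHSF1 cells. The other 4 siNC peaks had no partner, led by chr2:21270461-21270757 and chr2:21278643-21279251 at 5.29 and chr2:21273224-21273547 at 4.66, and all 5 siHSF1 peaks had one. The count in this window depended on its edge. A siNC peak of 5580 bp (chr2:21290360-21295939, fold enrichment 12.997) lay just past it, and with 20 kb more on either side there were 9 siNC and 10 siHSF1 peaks. The covered bases of that wider window were 11200 bp in siNC and 4270 bp in siHSF1 cells.

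In the APOE-APOC1-APOC4-APOC2 window the siNC list held 2 peaks over 5 kb long. The longer (chr19:45422325-45429810) had 7486 bp, a pileup of 35 and a fold enrichment of 17.3, above 99.25% of siNC peaks in height and 99.3% in length. In the siHSF1 list 7 peaks lay over it, together 4115 bp, the highest with a pileup of 16 and a fold enrichment of 8.68, for a log2 ratio of -0.998. The other (chr19:45415392-45420680) had 5289 bp, a pileup of 34 and a fold enrichment of 16.1. There, 4 siHSF1 peaks covered 4052 bp, the highest of them (chr19:45416109-45419031) with a pileup of 18 and a fold enrichment of 10.7, for a log2 ratio of -0.58. This was the highest siHSF1 peak of the 3 windows, above 94.55% of its list.

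A broad siNC peak split into several in the siHSF1 list was common. Of 694 regions genome-wide in which a single siNC peak of at least 5 kb was shared, the median held 4 siHSF1 peaks, and 87.0% held fewer than 7. The covered bases in such regions were 0.759 times those of siNC at the median.

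Further into the APOE window, the siNC peak at chr19:45457809-45458583 had a fold enrichment of 9.57 against 6.97, and that at chr19:45437061-45441006 one of 8.85 against 6.12. Lower in siHSF1 cells were also chr19:45434644-45436530, with 7.22 against 4.60, and chr19:45430319-45432128, with 6.26 against 3.77. A pair of regions at the other end of the window was higher in siHSF1 cells. At chr19:45406986-45410007 the fold enrichment was 5.80 in siNC and 7.97 in siHSF1 cells, and at chr19:45410527-45411070 it was 3.41 and 5.70. The 10 siNC peaks without a partner were led by chr19:45433436-45434397 with 6.26, chr19:45450341-45450670 with 6.13 and chr19:45441945-45442266 with 5.59. Of the 4 siHSF1 peaks without one, the highest were chr19:45436755-45437045 with 5.23, chr19:45447746-45447920 with 4.14 and 2 with 4.12, chr19:45406251-45406500 and chr19:45453163-45453478.

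Over the 3 windows, 15 regions held a peak of both lists, and 11 of them had a lower fold enrichment in siHSF1 cells, where 50.4% of all shared regions did. At least 1.5-fold lower were 6 of the 15, beside 10.3% of all shared regions. At least 1.5-fold higher was 1 of the 15, and the share of all shared regions that were so was not computed. The median log2 ratio was -0.53, with a range from -1.06 to 0.74, beside -0.0051 over all 19826 regions. By window the medians were -0.94 for APOA5 (3 regions), -0.40 for APOB (4 regions) and -0.56 for APOE (8 regions). The apolipoprotein regions with the highest siNC values belong to a part of the range where siNC exceeded siHSF1 in general. Of the regions with a siNC fold enrichment of at least 10, 78.6% of 2995 were lower in siHSF1 cells with a median log2 ratio of -0.30, and all 4 such apolipoprotein regions were lower, with -1.06, -0.998, -0.58 and -0.39. Selecting on the other list turned this: of 2756 regions with a siHSF1 fold enrichment of at least 10, 37.5% were lower and the median was 0.14. Both subsets were taken after the data were seen.

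These heights rested on few tags. The pileups of the 15 regions ran from 8 to 35 tags in siNC and from 5 to 18 in siHSF1 cells. With pileup set per kept tag and per base of fragment length, the median log2 ratio of the 15 regions was 0.038, beside 0.24 over all regions, and 7 of the 15 were below 0 and 10 below the median of all regions. For every one of the 15 regions, the exact 95% interval of this ratio, which covers counting error only, included 0. No single apolipoprotein region was thus shown to differ in pileup at this depth. For the highest APOA5 region the interval ran from -2.21 to 0.39, and for the longest APOE region from -1.46 to 0.39.

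**Figure D3:**
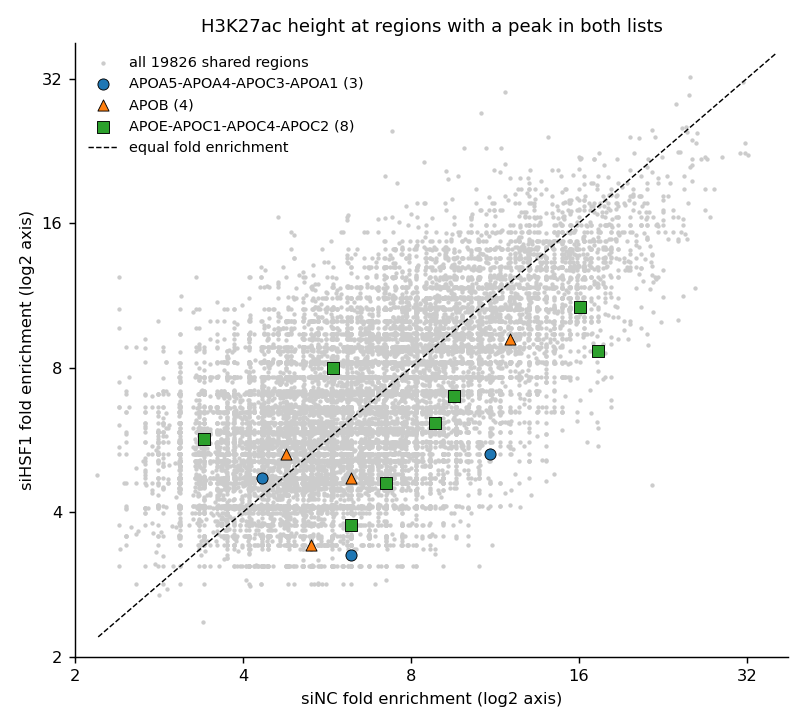
Highest H3K27ac fold enrichment in siNC (horizontal, log2 axis) and siHSF1 cells (vertical, log2 axis) at each of the 19826 regions with a peak in both lists (grey), with the 15 regions of the apolipoprotein windows as filled symbols and a dashed line at equal values. Of the 15, 11 lie below the line, and the 4 that lie above it have siNC values from 3.41 to 5.80.

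Peaks with a partner in the other list were counted next. Of the 40 siNC peaks in the windows, 15 (37.5%) overlapped a siHSF1 peak by at least 1 bp, where 51.7% of all siNC peaks did. By window this was 3 of 14 for APOA5 (95% Wilson interval 7.57% to 47.6%), 4 of 8 for APOB (21.5% to 78.5%) and 8 of 18 for APOE (24.6% to 66.3%). Of the 36 siHSF1 peaks, 30 (83.3%) overlapped a siNC peak, where 74.6% of all siHSF1 peaks did. The 25 siNC peaks without a partner had a fold enrichment of at most 6.26, a value above 70.5% of all siNC peaks. Peaks of 1 window are not replicates, and these intervals compare no conditions. With summits within 500 bp of each other as the rule, the shares were 35.0% of siNC peaks (14 of 40) and 38.9% of siHSF1 peaks (14 of 36). The shares over all peaks were not computed under this rule.

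Stitched into regions, the H3K27ac peaks of the 3 windows stood at very different ranks. Signal was the pileup above local background per 1e6 tags times peak length, summed over a stitched region. An SE was a region above the point where the ranked curve reaches a slope of 1. The study called SEs with ROSE, which needs aligned reads and was not run here. The SEs given here are a stand-in made from summit height and peak length. That point lay at a signal of 23983 in siNC and 9802 in siHSF1 cells. Signal was not corrected for fragment length, so its values in the siNC and siHSF1 lists are not on the same scale. The APOE region was an SE in both lists, at rank 98 of 14420 in siNC and 357 of 13377 in siHSF1 cells, with a signal of 69132 and 14335. It held 22 siNC peaks, of which 4 lay before the window and made up 3.66% of the signal, and 25 siHSF1 peaks. The APOA5 region was an SE in neither list, at rank 1599 in siNC and 4139 in siHSF1 cells. The APOB region stood at rank 745 in siNC, short of the 666 SEs, and at 3799 in siHSF1 cells. These ranks belong to unlike stretches, chr2:21264001-21295939 in siNC and chr2:21264504-21275484 in siHSF1 cells. The peak of 5580 bp past the APOB window gave 64.0% of the signal of the siNC stretch. The 8 siNC peaks inside the window alone would stand at rank 2258. With signal taken from fold enrichment the siNC region of APOB was an SE, at rank 608.

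Near the apolipoprotein genes 4 of the 5 HSF1 CUT&Tag peaks stood below 70% of their list by fold enrichment. Of the 9 genes, 7 had an HSF1 peak within the body plus 20 kb, where 42.5% of all coding genes did, but these 7 shared the 5 peaks printed above. Within 1 kb of the gene start it was 2 of 9, APOA5 and APOB, where 21.9% of all coding genes had one. APOA1 and APOC3 had none, and their nearest HSF1 summit lay 29.1 kb and 21.2 kb from the start.

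APOA5 (ENSG00000110243.12) lies at chr11:116789367-116792420 on hg38, on the minus strand. Its HSF1 peak (chr11:116791373-116791572) lay in an intron with the summit 945 bp downstream of the start. It had a pileup of 12 and a fold enrichment of 6.07, above 29.0% of HSF1 peaks. The sequence held none of the motifs searched. The peak between APOA5 and APOA4 (chr11:116808337-116808536) had a pileup of 6 and a fold enrichment of 4.27, above 1.16% of HSF1 peaks, and was the only one counted for APOA4. It was intergenic, and the nearest annotated start, 5505 bp away, was that of the long non-coding RNA gene ENSG00000236267. It held 1 CCAAT, 14 bp past the summit.

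APOB (ENSG00000084674.15) lies at chr2:21001429-21044073 on the minus strand. The HSF1 peak (chr2:21043007-21043332) lay in an intron, 909 bp downstream of the start, with a pileup of 11 and a fold enrichment of 4.69, above 2.57% of HSF1 peaks. No searched motif was found in it.

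The strongest of the 5 peaks (chr19:44890457-44891285) was the only one counted for APOE (ENSG00000130203.10, chr19:44905791-44909393, plus strand), but it lay at another gene. Its summit was 170 bp downstream of the start of TOMM40, which encodes the import channel of the outer mitochondrial membrane, and 15.1 kb from that of APOE. The summit fell in a TOMM40 intron and, 137 bp from its start, in the long non-coding RNA gene ENSG00000267282. The pileup was 62 and the fold enrichment 11.5, above 96.7% of HSF1 peaks, and a CCAAT lay 55 bp past the summit. The fifth peak (chr19:44935953-44936157) was intergenic, 6171 bp upstream of the start of APOC4 (ENSG00000267467.4), with a pileup of 10 and a fold enrichment of 5.79, above 21.7% of HSF1 peaks. It was the peak counted for APOC1, APOC2 and APOC4 alike. The printed DR1 match begins 13 bp before its summit on the minus strand. Hepatic control regions, enhancers that serve this cluster in liver, are known downstream of APOC1, and whether this peak lies in one was not tested.

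**Figure D4:**
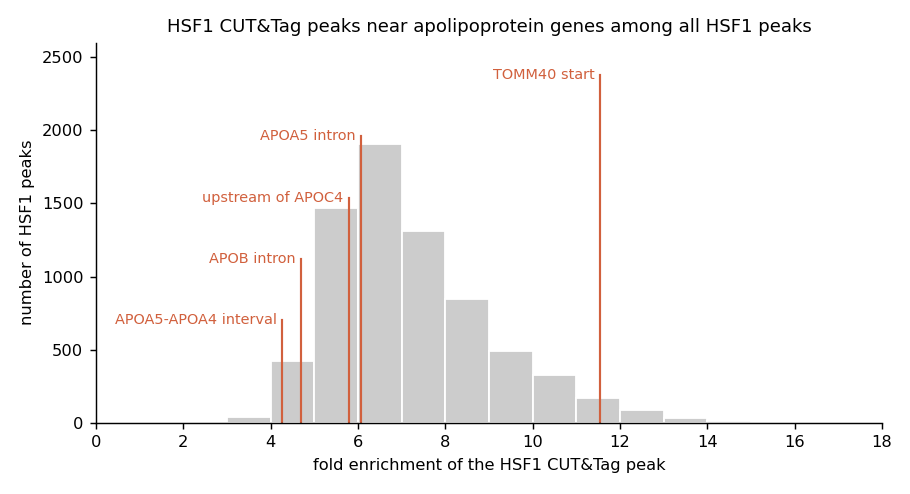
Number of HSF1 CUT&Tag peaks (vertical) by fold enrichment in steps of 1 (horizontal), with the 5 peaks near apolipoprotein genes as labelled lines whose heights carry no value. The peak at the TOMM40 start, at 11.5, lies in the upper tail, and the other 4 lie between 4.27 and 6.07.

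The motifs were searched on both strands within 100 bp of each HSF1 summit. CCAAT was found at 30.7% of the 7147 summits and the DR1 AGGTCAAAGGTCA, with up to 2 mismatches, at 1.37%. The heat shock element GAANNTTCNNGAA, with up to 1 mismatch, was found at 2.42%, and the HNF1 site GTTAATNATTAAC, with up to 2, at 1.26%. Near the apolipoprotein genes, 2 of 5 peaks held CCAAT, 1 held DR1, and neither the heat shock element nor the HNF1 site matched. No match in these windows overlapped another motif.

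RefSeq promoters on GRCh38.p14, from 250 bases before to 50 after the start, were given for 6 of the 9 genes: APOA4, APOA5, APOE, APOC1, APOC2 and APOC4. Of 27305 promoters in that table, 35.7% held CCAAT, 6.36% the heat shock element, 1.02% DR1 and 1.31% the HNF1 site. Among the 6, APOA5 and APOE held CCAAT on the strand opposite to that of the gene, beginning 30 and 27 bases before the start. APOA5 also held a DR1. The APOA5 sequence is shown because an HSF1 peak lay within 1 kb of this start, and capitals mark first the DR1 and then the CCAAT, which reads ATTGG on this strand. The HSF1 summit itself lay outside it.
APOA5 promoter, chr11:116792421-116792670, minus strand: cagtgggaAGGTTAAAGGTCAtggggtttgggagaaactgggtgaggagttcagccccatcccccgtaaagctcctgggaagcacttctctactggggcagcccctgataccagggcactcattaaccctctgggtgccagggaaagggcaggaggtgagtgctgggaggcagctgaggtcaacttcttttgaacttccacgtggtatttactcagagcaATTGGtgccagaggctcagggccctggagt

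The H3K27ac CUT&Tag list held no peak within 20 kb of any of the 9 genes, where 7.4% of all coding genes had one. The nearest summits lay 533 kb from the start of APOC2, 2653 kb from that of APOA1 and 5413 kb from that of APOB. None of the 5 HSF1 peaks overlapped an H3K27ac CUT&Tag peak. The list held none within 20 kb of 12 hepatocyte marker genes either, and none near 12 markers of other lineages, so it could not check the cell type. At the depth of 896393 tags a missing peak says nothing about the acetylation that ChIP-seq measured in these windows.

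HSF1 peaks were counted in the same way at the starts of other genes of lipoprotein metabolism. Of 44 such genes, 5 had an HSF1 peak within 1 kb of the start (11.4%), where 21.9% of all coding genes did. Among 16 other apolipoprotein genes these were APOO, a protein of the mitochondrial inner membrane, with a fold enrichment of 8.59, CLU, an extracellular chaperone, with 7.98, and APOA2, a protein of high density lipoproteins, with 7.14. Of 9 receptor and uptake genes, which include the LDL receptor family, none had one. Of 19 genes of assembly, lipases, transfer and transport, P4HB had one with 8.68 and MTTP with 7.89. P4HB and MTTP encode the 2 subunits of the microsomal transfer protein that loads lipid onto APOB.

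Of 24 genes of liver transcription factors, 10 had an HSF1 peak at the start, beside the 21.9% of all coding genes. The highest were SREBF2, the regulator of cholesterol synthesis, with 12.6, SP1 with 11.7, and NR5A2, a nuclear receptor of bile acid and cholesterol genes, with 8.43. They were followed by CREB3L3, a liver factor that activates APOA4 and APOC2, with 8.00, NR2F1 with 7.76 and FOXA3 with 7.31. HNF4A, the nuclear receptor that binds DR1 sites in many apolipoprotein promoters, had a low peak with 5.36. Of 12 heat shock genes, listed as a check of the HSF1 library, 5 had one. These were led by HSPE1 with 12.3 and HSPA8 with 11.7, followed by HSPD1, HSPH1 and HSP90AA1 with 8.33, 7.94 and 6.74. HSPA1A, HSPA1B, HSP90AB1, DNAJB1, HSPB1, BAG3 and SERPINH1 had no HSF1 peak within 1 kb of the start. The check was thus met by only a part of the list. With any annotated transcript start, 6 of the 12 had a peak. The HSPD1 and HSPE1 peaks differed, with summits 894 bp and 71 bp from the starts used, and the distance between them was not computed. Of the hepatocyte markers, 3 of 12 had an HSF1 peak at the start, FGG with 8.72, FGA with 6.36 and AMBP with 4.94. This was close to the 21.9% of all coding genes. Of the markers of other lineages 1 of 12 had such a peak, COL1A1 with 4.72.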

How the data were processed

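The authors called peaks for each library by itself with MACS, and 4 deposited peak lists were used. Per the file headers, the ChIP-seq lists came from BWA alignments to hg19 and MACS 2.1.1.20160309 with the matching input as control at a q-value of 0.05, while the study's methods name Bowtie2 and hg38. Per the file headers, the CUT&Tag lists are on hg38 and came from MACS 2.1.4 at a p-value of 1e-05, with no control, with tags shifted by -100 bp and extended to 200 bp. Duplicates were removed by the caller. As a deposited signal, pileup counts the extended tags at a summit and is unscaled. Fold enrichment, also deposited, is a ratio: pileup plus 1 over local background plus 1. The deposited -log10 q-value was used only as a ranking and a filter, since the CUT&Tag headers say that q-values were not calculated.

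Only the autosomes and the sex chromosomes were kept. The builds were kept apart: ChIP-seq peaks on hg19 were assigned to the 3 fixed windows and to no gene, and CUT&Tag peaks to GENCODE release 44 genes on hg38. Overlap meant at least 1 bp, and shared regions took the highest peak of each list. Peaks were stitched at the distance that ROSE uses by default. Percentile is the share of a list's peaks with a lower value. For each gene list, up to 6 genes with a peak at the start were named by fold enrichment. HNF4A and the heat shock genes without a peak were added after their values were seen. For each window the 3 highest peaks of each list and up to 3 without a partner were named, with ties; every shared region was given as well. The genes, windows and lists were chosen with earlier results of these data known. The 6 RNA-seq and 2 input samples were not analysed here. Intervals are 95% Wilson or exact and cover counting error only. The functions were tested on simulated data of 3000 peaks, and all 7 planted values were recovered. The work was done in Python 3.11.15 with pysam 0.24.0 for sequences, pandas 2.3.3 and numpy 2.4.6 for the lists, scipy 1.17.1 for intervals, and matplotlib 3.10.9.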

Additional observations from a re-analysis of the deposited data

How the results depend on the processing

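Of 83 values under alternatives, 53 stayed within the limits set for the same value, 27 moved and 3 changed direction. With 1 library per condition these limits were 1.5 times for counts, ratios and ranks, the counting interval for shares and percentiles, and the range of the regions for medians. The range of the regions is a wide limit for a median. By it the APOE median of -0.0059, with pileup per tag and per base of fragment length, counted as the same as -0.56. The causes were not tested. No paired analysis was possible because each condition has 1 library. Pileups of 5 to 35 tags limit every height in the windows.

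Peaks with a -log10 q-value of at least 5 gave a ratio of peak numbers of 0.667 for APOE (10 against 15 peaks), which turned below 1, and 0.167 for APOB, and ratios of covered bases of 0.0870 for APOA5 and 0.139 for APOB. They gave a share of siNC peaks with a partner of 24.0%. Windows wider by 20 kb turned the APOB number ratio to 1.11. Joining peaks less than 1 kb apart gave 1.00 for APOA5 and 0.400 for APOB. An overlap of 50% of the peak gave a share of 17.5% of siNC peaks, and summits within 500 bp one of 38.9% of siHSF1 peaks, beside 35.0% of siNC peaks. None of these alternatives was run over all peaks, so these values have no genome-wide value beside them.

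Pileup per 1e6 tags gave median log2 ratios of -1.40 for APOA5, -0.68 for APOB and -0.77 for APOE, beside -0.53 over all regions. With fragment length as well they were -0.64, 0.082 and -0.0059, beside 0.24 over all regions, so the APOB median changed sign. Below the median of all regions under the same measure lay 11 of the 15 regions by fold enrichment and 11 by pileup over local background without the added 1. By pileup per 1e6 tags it was 10. Division by fragment length shifts all regions alike, so it could not change that 10. Ranked by pileup, the highest siNC peaks stood above 90.8%, 93.0% and 98.2% of their list for APOA5, APOB and APOE, and the highest siHSF1 peaks above 50.9% for APOA5 and 91.5% for APOE. Ranked by -log10 q-value these were 93.5%, 95.2% and 98.97% for siNC and 65.0%, 90.2% and 93.9% for siHSF1 cells. The stitched APOB region stood at rank 2268 in siNC with a stitching distance of 5 kb, at rank 2258 with only the peaks inside the window, and at rank 1607 in siHSF1 cells with 25 kb. The APOE region was an SE in both lists under every alternative run, all of which took signal as height at the summit times peak length.

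HSF1 peaks lay within the body plus 5 kb, and within 1 kb of the start, of 2 of the 9 genes in place of 7. Within the body plus 20 kb they lay near 16 of the 44 lipoprotein genes in place of 5 at the start, and near 42.5% of all coding genes in place of 21.9%. The subsets by height, the blocks of the genome and the restriction to peaks inside the window were chosen after the data were seen.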
